A study of Mus musculus with 31 samples.

Results

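Multipotent progenitors of the MPP3 type (3 arrays) were compared with short-term haematopoietic stem cells (ST-HSC, 3 arrays), which are 6 of the 31 arrays of a series on 9 sorted blood cell populations of mouse bone marrow. The arrays were chosen by their labels alone. Both populations came from wild-type C57BL/6 mice with no treatment named, and 20000 double-sorted cells gave the amplified RNA of each array. Both lacked lineage markers, Flk2 and CD150 and carried cKit and Sca1. The gates differed in CD48, which was present on MPP3 and absent on ST-HSC. The design text calls the replicates biological, and the labels give no age, sex, animal or pool of animals, and HSC and GMP arrays of the series, with no array named, were used a second time as the controls of another study. MPP2 (3 arrays), sorted like MPP3 but positive for CD150, is used below to see where a change away from ST-HSC differs between these progenitors.

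Short-term stem cells can rebuild the blood for a limited time, and they divide rarely. Multipotent progenitors lie downstream of them, cycle more and supply the committed progenitors, and MPP3 is known as a progenitor with a bias towards granulocytes and monocytes. Granulocyte production starts with the genes of primary granule proteins such as myeloperoxidase, which are read under C/EBP factors and PU.1. Cell division requires a wave of genes for spindle, kinetochore and chromosome proteins that is read in G2 and mitosis.

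Promoters of 4 genes of the groups that rose in MPP3 are shown, 2 for mitosis and 2 for granule proteins, because their changes are described in detail below. Each runs from 250 bases before to 50 bases after the start of the gene in RefSeq on build GRCm38.p6, 5′ to 3′ on the strand of the gene. Capitals mark matches on either strand to the motifs searched, which were TTTGAA (the core of the cell cycle element CHR) and CCAAT for mitosis genes, and TTGCNNCAA (C/EBP type) and GAGGAAGT (PU.1 type) for granule genes. No marked matches overlap each other. Bub1 lies at chr2:127831810-127832109 on the minus strand, Kif11 at chr19:37376132-37376431 on the plus strand, Mpo at chr11:87793534-87793833 on the plus strand and Ctsg at chr14:56102525-56102824 on the minus strand.
Bub1: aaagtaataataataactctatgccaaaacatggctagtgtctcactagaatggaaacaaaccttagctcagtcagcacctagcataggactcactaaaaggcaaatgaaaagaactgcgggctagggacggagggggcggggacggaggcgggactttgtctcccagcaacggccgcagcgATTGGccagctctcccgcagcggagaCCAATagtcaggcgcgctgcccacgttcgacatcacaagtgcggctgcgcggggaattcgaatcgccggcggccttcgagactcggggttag
Kif11: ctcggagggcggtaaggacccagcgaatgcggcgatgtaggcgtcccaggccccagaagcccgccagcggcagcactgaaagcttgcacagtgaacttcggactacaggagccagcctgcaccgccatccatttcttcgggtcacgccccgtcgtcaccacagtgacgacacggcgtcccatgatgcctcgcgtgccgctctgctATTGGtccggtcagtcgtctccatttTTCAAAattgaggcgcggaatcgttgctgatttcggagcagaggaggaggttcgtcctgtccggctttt
Mpo: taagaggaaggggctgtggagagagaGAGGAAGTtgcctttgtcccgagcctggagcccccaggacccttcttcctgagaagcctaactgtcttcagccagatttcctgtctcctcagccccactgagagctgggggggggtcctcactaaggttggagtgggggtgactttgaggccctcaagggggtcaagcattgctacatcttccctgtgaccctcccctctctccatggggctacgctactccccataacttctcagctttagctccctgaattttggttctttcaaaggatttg
Ctsg: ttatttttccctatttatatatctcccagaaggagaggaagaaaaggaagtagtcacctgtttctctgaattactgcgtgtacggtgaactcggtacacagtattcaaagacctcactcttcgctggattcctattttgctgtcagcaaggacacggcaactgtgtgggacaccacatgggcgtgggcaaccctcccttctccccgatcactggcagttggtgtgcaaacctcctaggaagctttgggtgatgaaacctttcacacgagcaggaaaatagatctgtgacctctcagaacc

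The Bub1 promoter holds 2 CCAAT matches, and Kif11 holds 1 CCAAT and 1 TTTGAA match. TTTGAA was present in 19 of the 24 mitosis genes with a promoter in the table (79.2%), against 15.2% of the 15562 promoters of all genes. CCAAT was present in 20 of these 24 (83.3%), against 38.3% of all promoters. The Mpo promoter holds 1 GAGGAAGT match and the Ctsg promoter holds none of the letters searched. GAGGAAGT was found in 3 of 21 granulocyte-monocyte genes (14.3%), against 2.74% of all promoters, and TTGCNNCAA in 2 of 21 (9.52%), against 1.89%. A match describes the letters of this window and is not a binding site.

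One of the MPP3 arrays stood apart. The deposited log2 values of MPP3 3 had a median of 6.996, against 7.80 and 7.81 for MPP3 1 and 2 and 7.81 to 7.83 for the ST-HSC arrays, and MPP3 3 shares identical values with LT-HSC 4, MPP4 4, MPP4 5 and GMP 4 rather than with the other MPP3 arrays. After quantile normalization, MPP3 3 correlated across genes at 0.949 to 0.966 with the other 5 arrays, which correlated with each other at 0.973 to 0.991. Xist, read from the inactive X chromosome, was at 5.55, 5.56 and 11.84 in the MPP3 arrays, against 5.69, 5.65 and 5.24 in ST-HSC. The Y-linked gene Eif2s3y was at 9.16, 8.97 and 4.17 in the MPP3 arrays, against 9.29, 9.55 and 9.94 in ST-HSC. MPP3 3 thus differs from the other 5 arrays in these sex-linked transcripts. They also varied widely between the 3 MPP2 arrays, with means of 7.59 ± 3.34 for Xist and 7.44 ± 2.90 for Eif2s3y (SD). Without MPP3 3 the fit to all arrays called 293 genes higher and 106 lower, against 395 and 234 with it, and of the 468 genes called in both fits below, 360 were still called without it.

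All levels below are quantile-normalized log2 values, and changes are MPP3 minus ST-HSC in log2 with the SE of limma's fit to all 31 arrays. A second, scale-matched fit adds the set of arrays that share identical values as a term, and there the comparison rests on MPP3 1 and 2 against the 3 ST-HSC arrays. The words rose and fell are kept for genes that both fits called in the same direction, with a threshold of 0.05 on the p-value after Benjamini-Hochberg adjustment. The adjusted p given is that of the fit to all arrays, except where a call ended without a single array. There it is the higher adjusted p of both fits, so the fit to all arrays may have kept the call.

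Of 19938 genes, 315 rose in MPP3 (1.58%) and 153 fell (0.767%). Rises were larger than falls: 35 genes rose and 4 fell by at least 4-fold, and the extremes were 6.52 for Jchain, the joining chain of secreted antibodies, and -2.42 for Abcg3, a transporter gene. The 3 MPP3 arrays did not overlap the 3 ST-HSC arrays for 313 of the 315 and 152 of the 153, against 9.50% of all genes that were higher without overlap and 7.99% that were lower without overlap. The fit to all arrays alone called 629 genes (3.15%), 395 higher (1.98%) and 234 lower (1.17%), and the scale-matched fit alone called 622 (3.12%). On the deposited values without normalization, where the median change of all genes was -0.27, the fit to all arrays called 60 higher and 200 lower. On the deposited values of the arrays at the ST-HSC level, which leaves out MPP3 3, 206 were higher and 43 lower. Of the 468 calls, 181 remained in both fits without each of the 6 arrays in turn. Without MPP3 1 or 2 the scale-matched comparison rests on a single MPP3 array. A call that ended there therefore does not measure how the gene varies between MPP3 arrays. In these bulk samples, more cells of a type and more RNA per cell cannot be told apart.

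**Figure D1:**
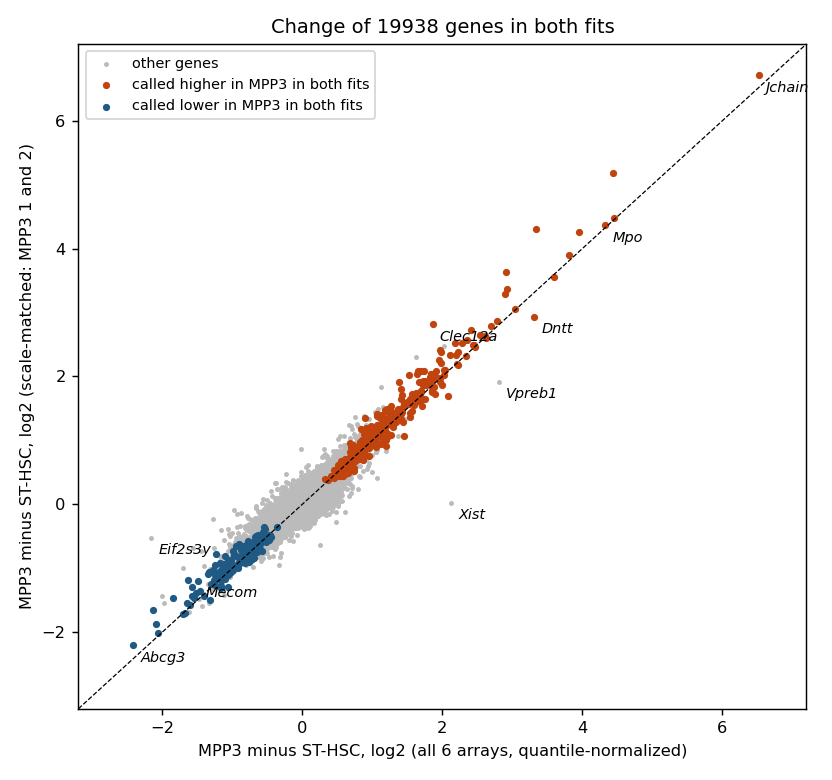
Change of each of 19938 genes (MPP3 minus ST-HSC, log2) in the fit to all arrays (x) and in the scale-matched fit that rests on MPP3 1 and 2 (y), with genes called higher in orange-red, called lower in blue and all others in grey. Called genes lie near the dashed line of equal change. The fits share MPP3 1 and 2 and the ST-HSC arrays, and called genes had to move alike in both, so this is no separate check. Xist, high in MPP3 3 alone among the arrays compared, lies at 2.12 on x and 0.03 on y.

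Among the genes of the sort, Cd48, which the gate fixed and which is no finding, was at 10.27, 10.54 and 10.50 in MPP3, against 6.02, 7.35 and 7.18 in ST-HSC. Slamf1, the CD150 gene, was at 5.75, 5.35 and 5.70 in MPP3, against 5.34, 4.68 and 5.14 in ST-HSC (change 0.55 ± 0.26, adjusted p = 0.366). Flt3, which encodes Flk2, was at 9.56, 9.78 and 9.81 in MPP3, against 9.86, 9.97 and 10.04 in ST-HSC, so its transcript was measured at about the same level in both Flk2-negative gates (-0.24 ± 0.24, adjusted p = 0.738). Kit, the receptor for stem cell factor, was above 11 in all 6 arrays (-0.31 ± 0.12, adjusted p = 0.193). Cd34 (0.20 ± 0.15, adjusted p = 0.609) and Itgam, the Mac1 gene (0.22 ± 0.22, adjusted p = 0.734), were not called. Fcgr3, a gene of the Fc gamma receptors used to gate later progenitors, rose, with 7.68, 7.34 and 7.53 in MPP3, against 6.96, 6.58 and 6.41 in ST-HSC (0.86 ± 0.14, adjusted p = 0.00025). The call of Fcgr3 ended without MPP3 1 (adjusted p = 0.0934) and on the deposited values without normalization (adjusted p = 0.352) or at the ST-HSC level (adjusted p = 0.0995). The Sca1 gene Ly6a was not analysed here.

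Genes of cell division rose together in MPP3. Of 29 measured mitosis genes 28 rose and none fell, beside 1.58% of all genes that rose, with a median change of 1.82 against 0.04 over all genes. The mean log2 level of the list was 9.51, 9.33 and 9.25 in the MPP3 arrays, against 7.71, 7.77 and 7.59 in ST-HSC, without overlap. Bub1, a kinase of the spindle checkpoint whose promoter is printed above, was at 9.72, 9.36 and 9.30 in MPP3, against 6.87, 6.62 and 6.54 in ST-HSC. The groups lay more than 2 log2 units apart, and its change was 2.78 ± 0.27 (adjusted p = 1.61e-07). Kif11, the motor that pushes the spindle poles apart, was at 10.78, 10.48 and 10.57 in MPP3, against 8.27, 8.03 and 7.69 in ST-HSC (2.61 ± 0.28, adjusted p = 1.1e-06). Mki67, the proliferation marker Ki-67, was at 10.88, 10.60 and 10.86 in MPP3, against 8.60, 8.49 and 8.59 in ST-HSC (2.22 ± 0.30, adjusted p = 2.05e-05). Each of these genes was high in all 3 MPP3 arrays, MPP3 3 included. Ncapg, a subunit of condensin, which compacts chromosomes, changed by 2.33 ± 0.32, and Cenpe, a kinetochore motor, by 2.21 ± 0.33. The member called in the fit to all arrays alone was Kif20a. The calls of 3 further members ended without single arrays: Kif23 without MPP3 3, Nek2 without MPP3 2 and Ube2c without MPP3 1 or ST-HSC 1, with adjusted p of 0.0519 to 0.278.

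DNA replication genes rose in smaller number and by less. Of 30 measured, 15 rose and none fell, beside 1.58% of all genes that rose, with a median change of 0.79. Rrm2, the small subunit of ribonucleotide reductase, which makes the building blocks of DNA, was at 9.32, 9.13 and 9.39 in MPP3, against 7.31, 7.44 and 8.07 in ST-HSC (1.67 ± 0.22, adjusted p = 1.42e-05). Pole, the catalytic subunit of a replicative polymerase, was at 8.65, 8.87 and 8.98 in MPP3, against 7.502, 7.71 and 7.09 in ST-HSC (1.40 ± 0.21). Uhrf1, which keeps DNA methylation through replication, was at 10.90, 10.64 and 10.45 in MPP3, against 9.05, 9.995 and 9.36 in ST-HSC (1.20 ± 0.21). All 3 kept the groups apart. Of the 15 calls, 4 remained without each of the 6 arrays (Rrm2, Pole, Uhrf1 and Mcm10), and the other 11, among them the primase gene Prim1 (without MPP3 1 or 2 or ST-HSC 1 or 3) and Rrm1 (without MPP3 1 or 2 or ST-HSC 1), ended without at least 1 array, with adjusted p of 0.0509 to 0.373. On the deposited values without normalization Rrm2, Pole, Uhrf1, Prim1 and Rrm1 were not called (adjusted p of 0.0594, 0.0689, 0.30, 0.197 and 0.235). Uhrf1 was also not called after centring on array medians (adjusted p = 0.0562), in a fit of the 6 arrays alone (adjusted p = 0.0526) or at the ST-HSC level of deposited values (adjusted p = 0.121).

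Among 21 genes of G1 cyclins, their kinases and inhibitors, and the Rb and E2F families, 3 rose and none fell. This stands beside 1.58% of all genes that rose. E2f8, a repressor of the E2F family that appears in S phase, was at 9.87, 9.57 and 9.52 in MPP3, against 7.57, 8.11 and 7.18 in ST-HSC (2.03 ± 0.23, adjusted p = 1.73e-06). Cdk6, a kinase of G1 (0.82 ± 0.22), and Cdkn2c, an inhibitor of that kinase (1.00 ± 0.28), also rose, but their calls ended without any single one of the 6 arrays (adjusted p of 0.05 to 0.389). The inhibitors Cdkn1b (-0.81, adjusted p = 0.094) and Cdkn1c (-0.16, adjusted p = 0.883) were not called.

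**Figure D2:**
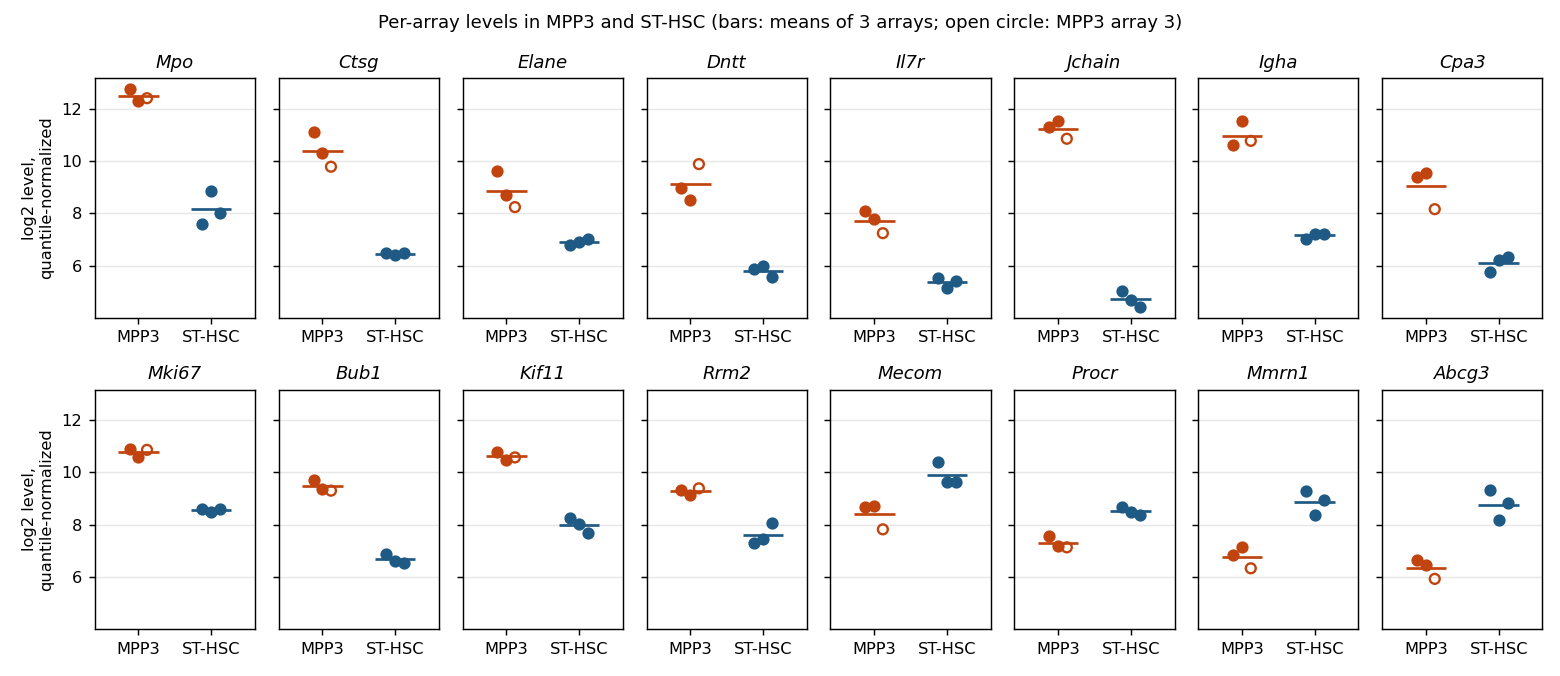
Quantile-normalized log2 level of 16 genes in each MPP3 array (orange-red, left) and each ST-HSC array (blue, right), with the mean of 3 arrays as a bar and MPP3 3 as an open circle. The groups do not overlap for any of the 16. All 16 were picked from genes called in both fits, and non-overlap was a condition for the largest changes among them. The 16 include granule, lymphoid, antibody and mitosis genes that were higher in MPP3. In the lower row at right are Mecom, Procr, Mmrn1 and Abcg3, which were lower.

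Genes of the granulocyte and monocyte lineage rose. Of 28 measured, 13 rose and none fell, beside 1.58% of all genes that rose, with a median change of 0.61. Mpo, the myeloperoxidase of primary granules, was at 12.74, 12.29 and 12.40 in MPP3, against 7.60, 8.84 and 8.02 in ST-HSC. The lowest MPP3 array lay more than 3 log2 units above the highest ST-HSC array, and the change was 4.32 ± 0.31 (adjusted p = 1.63e-09). Ctsg, the granule protease cathepsin G, was at 11.11, 10.30 and 9.78 in MPP3, against 6.47, 6.39 and 6.47 in ST-HSC (3.95 ± 0.35, adjusted p = 4.59e-08). Ms4a3, a membrane protein of granulocyte-monocyte progenitors, was at 10.28, 8.90 and 7.40 in MPP3, against 6.12, 5.83 and 5.93 in ST-HSC (2.90 ± 0.47, adjusted p = 0.000212). It varied widely between the MPP3 arrays, with MPP3 1 high and MPP3 3 low, and Clec12a, a lectin receptor of myeloid cells, was at 9.38, 8.99 and 6.32 in MPP3, against 6.25, 6.64 and 6.22 in ST-HSC, with MPP3 3 inside the ST-HSC range. Cst7, an inhibitor of cathepsins, was at 9.81, 8.86 and 9.02 in MPP3, against 6.81, 6.98 and 6.27 in ST-HSC (2.54 ± 0.36). Elane, neutrophil elastase, was at 9.62, 8.71 and 8.24 in MPP3, against 6.79, 6.90 and 7.02 in ST-HSC (1.95 ± 0.32, adjusted p = 0.000269). On the deposited values without normalization Elane was not called (adjusted p = 0.0808), and in a fit of the 6 arrays alone Ms4a3 was not called (adjusted p = 0.0585).

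The list also holds genes of transcription factors and receptors. Cebpa, which drives the first steps of granulocyte fate, was at 8.42, 8.75 and 9.06 in MPP3, against 7.69, 7.91 and 8.03 in ST-HSC (0.87 ± 0.20). Cebpe, needed for later granules, changed by 0.53 ± 0.14. Neither Cebpa nor Cebpe was called on the deposited values without normalization (adjusted p of 0.411 and 0.693). The same held after centring on array medians (adjusted p of 0.058 and 0.41) and at the ST-HSC level (adjusted p of 0.129 and 0.153). In a fit of the 6 arrays alone both were also not called (adjusted p of 0.0618 and 0.0954). Spi1, the PU.1 gene (0.10 ± 0.19, adjusted p = 0.885), Gfi1 (0.19 ± 0.12, adjusted p = 0.525) and Irf8 (0.43 ± 0.20, adjusted p = 0.358) were not called in both fits. The receptor genes Csf1r (0.19 ± 0.13, adjusted p = 0.583), Csf3r (-0.05 ± 0.21, adjusted p = 0.944) and Csf2ra (0.02 ± 0.22, adjusted p = 0.983) were not called either, nor was the granule protease gene Prtn3 (0.23 ± 0.37, adjusted p = 0.849), at 9.46, 8.68 and 8.16 in MPP3, against 8.42, 8.50 and 8.68 in ST-HSC. Leaving out 1 array ended the calls of Cebpa (ST-HSC 1 or 2 or any MPP3 array), Cebpe (any of the 6), Clec12a (ST-HSC 1 or 3 or MPP3 1 or 2) and Plac8 (ST-HSC 3 or MPP3 2), with adjusted p of 0.0504 to 0.431.

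In the list of oxidase and granule enzymes, 2 of 15 rose, beside 1.58% of all genes that rose. Cybb, the membrane subunit of the phagocyte NADPH oxidase, was at 8.08, 7.82 and 7.74 in MPP3, against 5.70, 6.27 and 5.595 in ST-HSC (2.03 ± 0.18, adjusted p = 4.59e-08). Serpinb1a, an inhibitor of granule proteases, changed by 0.76 ± 0.19, and its call ended without ST-HSC 1 or 3 or MPP3 1 or 2 (adjusted p of 0.0774 to 0.132).

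Genes used by eosinophils, basophils and mast cells were also higher, with 4 of 15 called and none lower, beside 1.58% of all genes that rose. Cpa3, a carboxypeptidase of mast cell granules, was at 9.38, 9.55 and 8.16 in MPP3, against 5.76, 6.22 and 6.32 in ST-HSC (2.93 ± 0.44, adjusted p = 8.49e-05). Prg2, the major basic protein of eosinophil granules, was at 9.27, 9.26 and 8.54 in MPP3, against 6.83, 6.38 and 6.99 in ST-HSC (2.29 ± 0.44). Both were lower in MPP3 3 than in MPP3 1 and 2. Prg2 was not called on the deposited values without normalization (adjusted p = 0.0687) or at the ST-HSC level (adjusted p = 0.0981). The protease genes Mcpt8 (1.64 ± 0.37) and Cma1 (0.65 ± 0.18) also rose. But Mcpt8 lost its call without MPP3 1 or 2 and Cma1 without MPP3 2 or 3 or any ST-HSC array. In the fit to all arrays the adjusted p was then 0.0575 to 0.309. Fcer1a, a subunit of the IgE receptor, changed by 1.43 and was not called (adjusted p = 0.176).

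Genes of early lymphoid cells rose beside the myeloid ones. Of 25 measured, 8 rose and none fell, beside 1.58% of all genes that rose, with a median change of 0.73. Dntt, the terminal transferase that adds bases at V(D)J joints, was at 8.96, 8.53 and 9.88 in MPP3, against 5.86, 5.99 and 5.58 in ST-HSC (3.31 ± 0.26, adjusted p = 5.12e-09). All 3 MPP3 arrays were at least 2 log2 units above ST-HSC, and MPP3 3 was the highest. Il7r, the receptor for interleukin-7, was at 8.08, 7.80 and 7.24 in MPP3, against 5.54, 5.14 and 5.40 in ST-HSC (2.35 ± 0.39, adjusted p = 0.000356). Cd52, a small surface glycoprotein of lymphocytes, was at 10.21, 10.52 and 8.99 in MPP3, against 7.56, 8.16 and 8.13 in ST-HSC (1.96 ± 0.31). Tespa1, a signalling protein of developing T cells, changed by 1.98 ± 0.33, and Ly6d, a marker of B-cell-biased lymphoid progenitors, by 1.63 ± 0.28. Cd52 (adjusted p = 0.118), Ly6d (adjusted p = 0.0748) and Tespa1 (adjusted p = 0.0711) were not called on the deposited values without normalization, nor was Tespa1 at the ST-HSC level (adjusted p = 0.0695). Ikzf1, which opens the lymphoid programme, did not pass (-0.02 ± 0.12, adjusted p = 0.974), nor did Notch1 (0.07 ± 0.22, adjusted p = 0.928).

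Genes that mark B-cell commitment differed between the MPP3 arrays. Vpreb1, part of the surrogate light chain, was at 11.43, 7.52 and 12.16 in MPP3, against 7.30, 8.18 and 7.21 in ST-HSC, high in MPP3 1 and 3 and within the ST-HSC range in MPP3 2. Ebf1, the B-lineage factor, was at 8.16, 5.84 and 7.38 in MPP3, against 5.57, 5.59 and 5.81 in ST-HSC, and Rag1, of the recombinase, was at 7.82, 6.27 and 7.57 in MPP3, against 5.95, 5.98 and 5.94 in ST-HSC. MPP3 2 was thus the lowest MPP3 array for each of these genes. None was called in both fits, with adjusted p of 0.0482, 0.0218 and 0.0681 in the fit to all arrays and of 0.279, 0.113 and 0.208 in the scale-matched fit. Among the called members, Blnk and Satb1 lost their calls without MPP3 1 and Ikzf3 without MPP3 1 or 2 or ST-HSC 1 (adjusted p of 0.0555 to 0.408).

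Antibody genes gave the largest rises of the comparison. Of 18 measured genes of antibody-forming and B cells, 7 rose and none fell, beside 1.58% of all genes that rose. The median change of the list was 0.54. Jchain was at 11.31, 11.53 and 10.85 in MPP3, against 5.04, 4.68 and 4.43 in ST-HSC, a fold change of 91.5 (6.52 ± 0.78, adjusted p = 3.62e-06). Igha, the heavy chain of immunoglobulin A, was at 10.61, 11.51 and 10.77 in MPP3, against 7.01, 7.23 and 7.22 in ST-HSC (3.81 ± 0.36, adjusted p = 8.97e-08). Ighm, the heavy chain of immunoglobulin M, was at 9.62, 9.61 and 9.27 in MPP3, against 7.55, 7.66 and 7.62 in ST-HSC (1.89 ± 0.17). These genes were high in every MPP3 array and low in every ST-HSC array. The 2 immunoglobulin kappa V segments with the largest rises changed by 4.46 ± 0.40 and 4.43 ± 0.59. Another, Igkv8-30, was at 9.72, 9.83 and 6.87 in MPP3, against 5.56, 5.32 and 5.50 in ST-HSC (3.34 ± 0.55), with MPP3 3 the lowest of the MPP3 arrays. Segments of this family are near copies of each other, so a probe may read more than the segment it is named for.

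Of the plasma cell factors, Irf4 rose, with 7.84, 7.66 and 6.71 in MPP3, against 6.51, 6.27 and 6.21 in ST-HSC (1.07 ± 0.20, adjusted p = 0.00139). Pou2af1, a B-cell coactivator (1.33 ± 0.34), Prdm1, the Blimp-1 gene (0.76 ± 0.17), and Cd79a, of the B-cell receptor (1.00 ± 0.26), also rose. Xbp1, the secretory factor of plasma cells, was at 9.53, 9.40 and 9.10 in MPP3, against 8.79, 9.10 and 9.10 in ST-HSC, and was not called (0.34 ± 0.16, adjusted p = 0.328). Sdc1, the plasma cell marker CD138 (0.28 ± 0.14, adjusted p = 0.394), and Tnfrsf17, the receptor BCMA (0.45 ± 0.19, adjusted p = 0.263), were not called in both fits, nor were the mature B-cell genes Ms4a1 (0.53, adjusted p = 0.451) and Pax5 (0.54, adjusted p = 0.151). The mean log2 level of this list of 18 was 8.16, 8.20 and 7.97 in MPP3, against 6.97, 6.96 and 6.997 in ST-HSC. Whether antibody-forming cells in the sorted MPP3 samples carry these transcripts was not tested. The calls of Pou2af1 (without ST-HSC 1 or 2 or any MPP3 array), Prdm1 (without ST-HSC 3 or MPP3 1) and Cd79a (without any ST-HSC array or MPP3 2 or 3) ended at adjusted p of 0.0513 to 0.144. Jchain was not called at the ST-HSC level of deposited values (adjusted p = 0.0568), Irf4 not in a fit of the 6 arrays alone (adjusted p = 0.126), with their own quantile normalization (adjusted p = 0.12) or without normalization (adjusted p = 0.248), and Igkv8-30 not in a fit of the 6 arrays alone (adjusted p = 0.0587).

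In the endoplasmic reticulum and secretory pathway, 5 of 26 genes rose and none fell, beside 1.58% of all genes that rose. The median change of the list was 0.42. Edem1, which sends misfolded glycoproteins to degradation, was at 8.94, 8.79 and 8.67 in MPP3, against 7.72, 7.77 and 7.62 in ST-HSC (1.11 ± 0.15, adjusted p = 2.03e-05). Pdia4 (0.86 ± 0.23) and Creld2 (0.70 ± 0.19), which act in protein folding, and Sel1l (0.65 ± 0.12) and Derl3 (0.63 ± 0.10), which act with Edem1 in degradation, were the others. Single arrays ended the calls of Pdia4 (ST-HSC 1 or 3 or any MPP3 array), Creld2 (ST-HSC 1 or 3 or MPP3 1 or 2), Sel1l (MPP3 1 or 2) and Derl3 (MPP3 1), with adjusted p of 0.0503 to 0.41. None of the 5 was called without normalization (adjusted p of 0.216 for Edem1 and 0.443 to 0.539 for the others). At the ST-HSC level of deposited values all but Edem1 were not called (adjusted p of 0.0708 to 0.302).

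**Figure D3:**
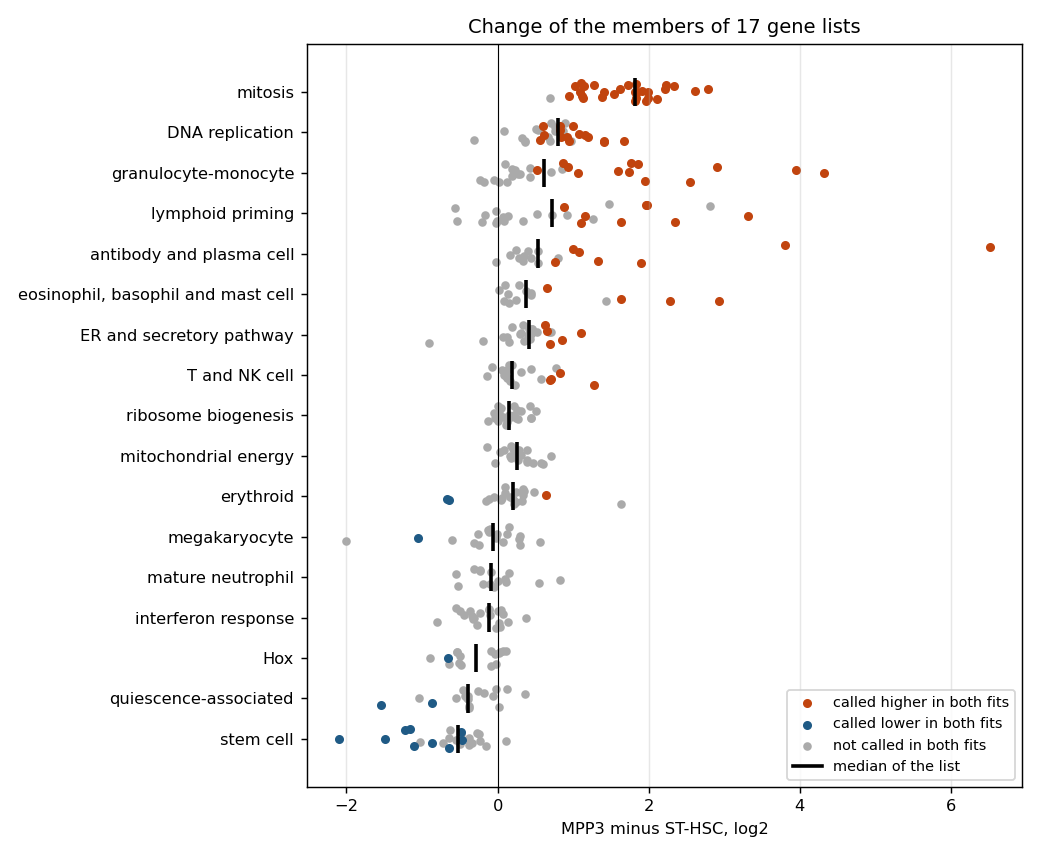
Change (MPP3 minus ST-HSC, log2) of each measured member of 17 gene lists, with members called higher in both fits in orange-red, called lower in blue, others in grey, and the median of each list as a black bar. The mitosis list lies at the top with a median of 1.82 and the stem cell list at the bottom with -0.53.

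Stem cell genes fell. Of 24 measured, 9 fell and none rose, beside 0.767% of all genes that fell, with a median change of -0.53. Mecom, a factor that keeps stem cells in their state, was at 8.67, 8.71 and 7.82 in MPP3, against 10.39, 9.64 and 9.65 in ST-HSC (-1.49 ± 0.20, adjusted p = 2.11e-05). Procr, the surface protein EPCR, was at 7.56, 7.19 and 7.13 in MPP3, against 8.68, 8.50 and 8.36 in ST-HSC (-1.22 ± 0.23, adjusted p = 0.00153). Mllt3, a chromatin reader that supports self-renewal, was at 10.07, 10.24 and 10.32 in MPP3, against 11.67, 11.10 and 11.19 in ST-HSC (-1.11 ± 0.20). Every MPP3 array lay below every ST-HSC array for each of these genes. Mmrn1, the platelet protein multimerin, was at 6.83, 7.14 and 6.33 in MPP3, against 9.27, 8.36 and 8.96 in ST-HSC (-2.10 ± 0.32, adjusted p = 9.78e-05). Hlf, a transcription factor of stem cells, was at 10.83, 10.73 and 10.74 in MPP3, against 11.71, 11.54 and 11.67 in ST-HSC (-0.87 ± 0.15). Meis1 (-0.55 ± 0.22, adjusted p = 0.212), Prdm16 (-0.37 ± 0.15, adjusted p = 0.226) and Gata2 (-0.25 ± 0.15, adjusted p = 0.505) were not called. Single arrays ended the calls of Trpc6 (MPP3 2), Fgd5 (ST-HSC 1 or 3 or MPP3 1), Esam (ST-HSC 1 or 3 or any MPP3 array) and Mycn (ST-HSC 1 or 2 or any MPP3 array), with adjusted p of 0.0509 to 0.438. At the ST-HSC level of deposited values, Mecom (adjusted p = 0.0963), Mllt3 (adjusted p = 0.0833) and Mmrn1 (adjusted p = 0.0685) were not called.

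Of 18 genes associated with quiescence, 2 fell, beside 0.767% of all genes that fell, with a median change of -0.39. Ndn, necdin, a growth suppressor, was at 6.75, 6.39 and 6.35 in MPP3, against 8.23, 7.21 and 8.69 in ST-HSC (-1.55 ± 0.33, adjusted p = 0.00441). Txnip, which binds thioredoxin and restrains glucose uptake, was at 11.32, 11.43 and 11.16 in MPP3, against 12.20, 11.96 and 12.34 in ST-HSC (-0.87 ± 0.15). The call of Ndn ended without ST-HSC 3 or MPP3 2 and that of Txnip without MPP3 1 (adjusted p of 0.0653 to 0.0718). Among 16 Hox genes, whose products pattern the body axis and act in stem cells, Hoxa6 fell (-0.66 ± 0.15), and its call ended without ST-HSC 1 or 3 or any MPP3 array (adjusted p of 0.0908 to 0.334). Hoxa9 changed by -0.48 (adjusted p = 0.054) and Hoxb4 by -0.53 (adjusted p = 0.194).

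**Figure D4:**
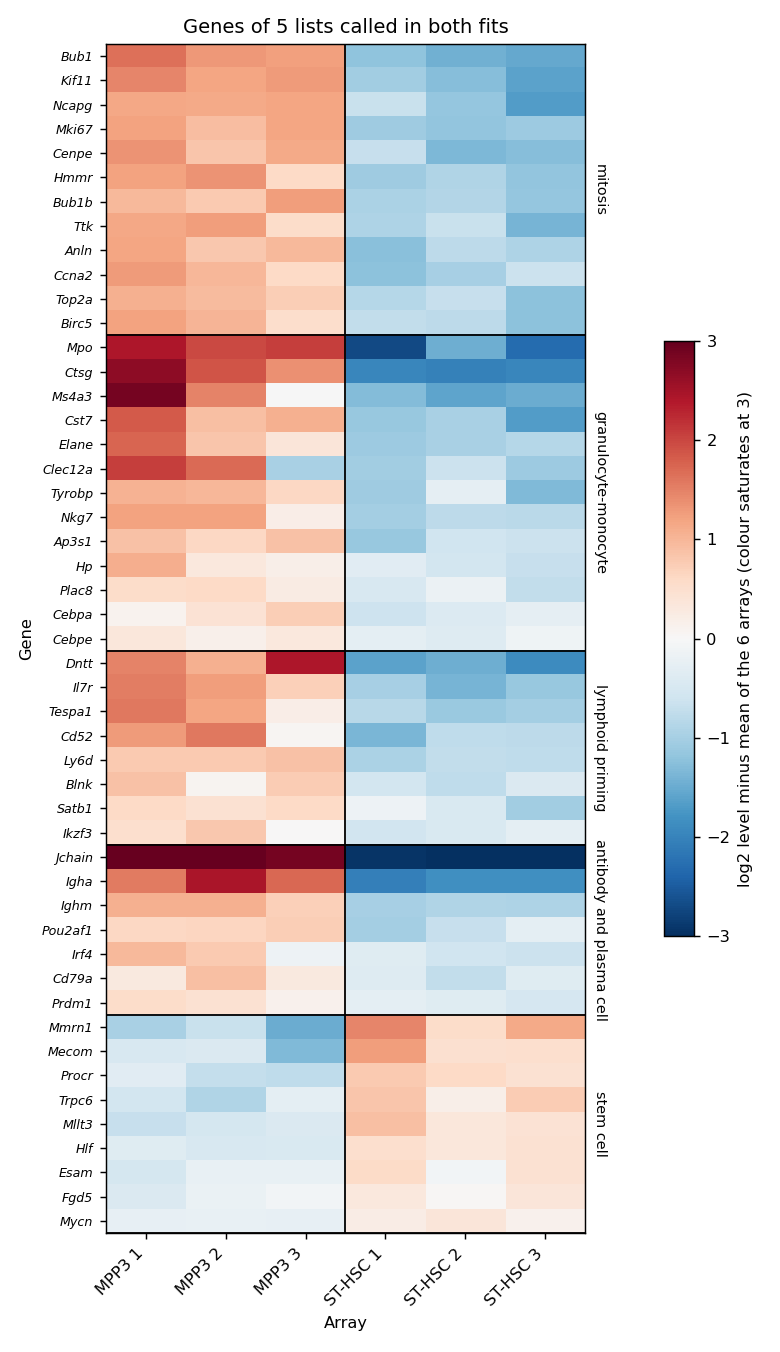
Level of genes called in both fits in 5 lists (the 12 mitosis genes with the largest change and all called genes of the other 4) in each array, as the log2 level minus the mean of the 6 arrays, with MPP3 in the left 3 columns and ST-HSC in the right 3. Most rises are red (above the mean) in all 3 MPP3 columns, while MPP3 3 is blue (below it) for Clec12a and near white for Ms4a3, Cd52 and Irf4.

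The largest falls outside these lists were in genes of varied function. Abcg3 was at 6.66, 6.47 and 5.93 in MPP3, against 9.32, 8.17 and 8.82 in ST-HSC (-2.42 ± 0.34, adjusted p = 3.05e-05). Plag1, a zinc finger transcription factor, was at 7.26, 7.43 and 7.22 in MPP3, against 9.81, 9.05 and 9.23 in ST-HSC (-2.06 ± 0.24, adjusted p = 3.3e-06). Ltb, the membrane lymphotoxin beta, was at 9.08, 9.36 and 8.11 in MPP3, against 10.75, 10.36 and 10.96 in ST-HSC (-1.84 ± 0.26). The groups do not overlap for these 3, which was a condition for naming the largest changes. Hacd4 (-1.71 ± 0.19), an enzyme of fatty acid elongation, Mboat2 (-1.68 ± 0.29), a lysophospholipid acyltransferase, Myof (-1.65 ± 0.20), a membrane repair protein of the ferlin family, and Itsn1 (-1.58 ± 0.21), an endocytic scaffold, followed. Sp140, a chromatin reader, was at 8.32, 7.47 and 6.53 in MPP3, against 9.20, 9.32 and 8.70 in ST-HSC, and its call ended without MPP3 2 (adjusted p = 0.279) or 3 (adjusted p = 0.0537). That of Klf12, a zinc finger factor (-1.57 ± 0.28), ended without MPP3 2 (adjusted p = 0.0776). Mboat2 (adjusted p = 0.162), Sp140 (adjusted p = 0.292) and Klf12 (adjusted p = 0.117) were not called at the ST-HSC level of deposited values.

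In the megakaryocyte list 1 of 18 fell and none rose, beside 0.767% of all genes that fell and 1.58% that rose. Ppbp, a platelet chemokine, was at 5.66, 5.70 and 5.59 in MPP3, against 6.93, 6.79 and 6.38 in ST-HSC (-1.05 ± 0.28), and the call ended without ST-HSC 1 or 2 or any MPP3 array (adjusted p of 0.0635 to 0.164). Pf4, platelet factor 4, changed by -2.004 (adjusted p = 0.0321) and was not called in the scale-matched fit, while Vwf changed by -0.01 (adjusted p = 0.991). Among 21 erythroid genes, Aqp1 rose (0.64 ± 0.15) and Car2 (-0.66 ± 0.14) and Cnrip1 (-0.64 ± 0.16) fell, and each lost its call without several arrays: Aqp1 without MPP3 1 or 2 or ST-HSC 1 or 3, Car2 without ST-HSC 1 or 3 or any MPP3 array, and Cnrip1 without MPP3 1 or 3 or ST-HSC 2 or 3 (adjusted p of 0.0778 to 0.79). The erythroid factors Gata1 (0.32, adjusted p = 0.442) and Klf1 (0.36, adjusted p = 0.212) were not called.

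In several further lists few or no genes passed limma's test in both fits. None of 22 ribosome biogenesis genes was called (3 higher at an unadjusted p under 0.05), with a median change of 0.16. None of 22 genes of mitochondrial energy metabolism was called (7 higher at an unadjusted p under 0.05, among them Sdhb with 0.70), with a median of 0.25. None of 21 interferon response genes was called (3 lower at an unadjusted p under 0.05), with a median of -0.12. Over all genes, 7.01% were higher and 6.02% lower at that unadjusted level. In glycolysis 1 of 16 fell, Ldhb (-0.95 ± 0.19), a lactate dehydrogenase, whose call ended without MPP3 1 (adjusted p = 0.167). Il7r was the 1 of 24 cytokine and growth factor receptors that rose. Of 34 lineage transcription factors 4 rose, which were Irf4, Ikzf3, Cebpa and Cebpe. Over all genes, 1.58% rose and 0.767% fell. The share of lineage factors that rose (11.8%) and that of adhesion genes that fell (12.5%) lay above these. Of 24 adhesion genes 1 rose, Itgal, the LFA-1 alpha chain, at 8.47, 8.05 and 8.003 in MPP3, against 6.82, 7.30 and 7.04 in ST-HSC (1.12 ± 0.17). On the deposited values Itgal was not called without normalization (adjusted p = 0.235) or at the ST-HSC level (adjusted p = 0.0753). Alcam (-0.72 ± 0.17), Cd82 (-0.65 ± 0.18) and Esam fell, but Alcam was not called without ST-HSC 3 or MPP3 1 and Cd82 not without any ST-HSC array or MPP3 2 or 3 (adjusted p of 0.065 to 0.398).

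Markers of other cells that a sort could carry over moved unevenly. Of 19 T and NK cell genes 4 rose, beside 1.58% of all genes that rose. Thy1 was at 9.19, 8.96 and 9.63 in MPP3, against 7.90, 7.77 and 8.31 in ST-HSC (1.27 ± 0.22), while Cd3e, of the T-cell receptor complex, averaged 7.32 ± 0.19 in MPP3 and 7.16 ± 0.26 in ST-HSC (SD, n = 3 each), without a call. On the deposited values Thy1 was not called without normalization (adjusted p = 0.126) or at the ST-HSC level (adjusted p = 0.121). The NK and cytotoxic genes Gzma (0.82 ± 0.19), Il2rb (0.70 ± 0.13) and Klrd1 (0.69 ± 0.18) rose, but Gzma and Il2rb were not called without MPP3 1, and Klrd1 not without MPP3 1 or 2 or any ST-HSC array (adjusted p of 0.0606 to 0.237). The mean level of the list was 6.98, 6.77 and 6.86 in MPP3, against 6.47, 6.54 and 6.55 in ST-HSC.

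Of all genes, 1.58% rose and 0.767% fell, so short lists would hold hardly any call at these shares. At an unadjusted p under 0.05, 7.01% of all genes were higher and 6.02% lower. None of 15 mature neutrophil genes was called (1 higher at an unadjusted p under 0.05). Their mean level was 6.77, 6.67 and 6.68 in MPP3, against 7.002, 6.36 and 6.85 in ST-HSC. Ltf, lactoferrin of secondary granules, changed by 0.12 (adjusted p = 0.751). Of 16 monocyte and macrophage genes 1 rose, F13a1 (0.91 ± 0.26), whose call ended without any one of the 6 arrays (adjusted p of 0.0632 to 0.587), and their mean level was 6.81, 6.72 and 6.82 in MPP3, against 6.55, 6.62 and 6.602 in ST-HSC. None of 17 dendritic cell and MHC class II genes was called (1 lower at an unadjusted p under 0.05), with mean levels of 7.76, 7.75 and 7.75 in MPP3, against 7.77, 7.67 and 7.90 in ST-HSC. Of 15 genes of stroma and endothelium 1 fell, Emcn, endomucin (-1.31 ± 0.28), also a stem cell surface protein, whose call ended without MPP3 2 (adjusted p = 0.133). The mean level of that list was 7.17, 7.21 and 7.41 in MPP3, against 7.30, 7.23 and 7.29 in ST-HSC. The eosinophil, basophil and mast cell list averaged 7.16, 7.13 and 6.89 in MPP3, against 6.28, 6.32 and 6.35 in ST-HSC. The part of other cells in the changes above was not tested.

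MPP3 was also set against MPP2, a comparison that shares the 3 MPP3 arrays with the one above, so values are given side by side. MPP3 was called higher than MPP2 in both fits for 100 genes (0.502%) and lower for 32 (0.160%). Dntt exceeded MPP2 by 2.99 ± 0.26, beside 3.31 ± 0.26 over ST-HSC. Ctsg exceeded MPP2 by 2.91 ± 0.35, beside 3.95 ± 0.35 over ST-HSC, and Mpo by 2.06 ± 0.31, beside 4.32 ± 0.31. Cybb exceeded MPP2 by 1.99 ± 0.18 and Elane by 1.64 ± 0.32. These granule, oxidase and lymphoid genes were thus higher in MPP3 than in either population. Igha exceeded MPP2 by 3.58 ± 0.36, while Jchain (3.36 ± 0.78) was called in the fit to all arrays alone, with MPP2 at 7.87 ± 2.92 (SD, n = 3). By list, 8 of 28 granulocyte-monocyte genes, 6 of 25 lymphoid genes and 4 of 18 antibody genes were higher in MPP3 than in MPP2.

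None of the 29 mitosis genes was called against MPP2 in both fits, beside 0.502% of all genes called higher and 0.160% called lower. At these shares a list of this length would hold hardly any call, so the count does not show equal levels. The median difference of the list, MPP3 minus MPP2, was -0.48, against -0.01 over all genes. Outside the list, Aspm, a spindle pole protein, was higher in MPP3 than in ST-HSC (1.84 ± 0.23) and lower than in MPP2 (-0.93 ± 0.23). Incenp, of the chromosomal passenger complex, changed by 1.06 ± 0.15 against ST-HSC and by -0.59 ± 0.15 against MPP2. Both were named after their values were seen. In the fit to all arrays, 192 genes were called against MPP2, with 387 without MPP2 3, 97 without MPP2 1, 116 without MPP3 1 and 118 without MPP3 3.

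**Figure D5:**
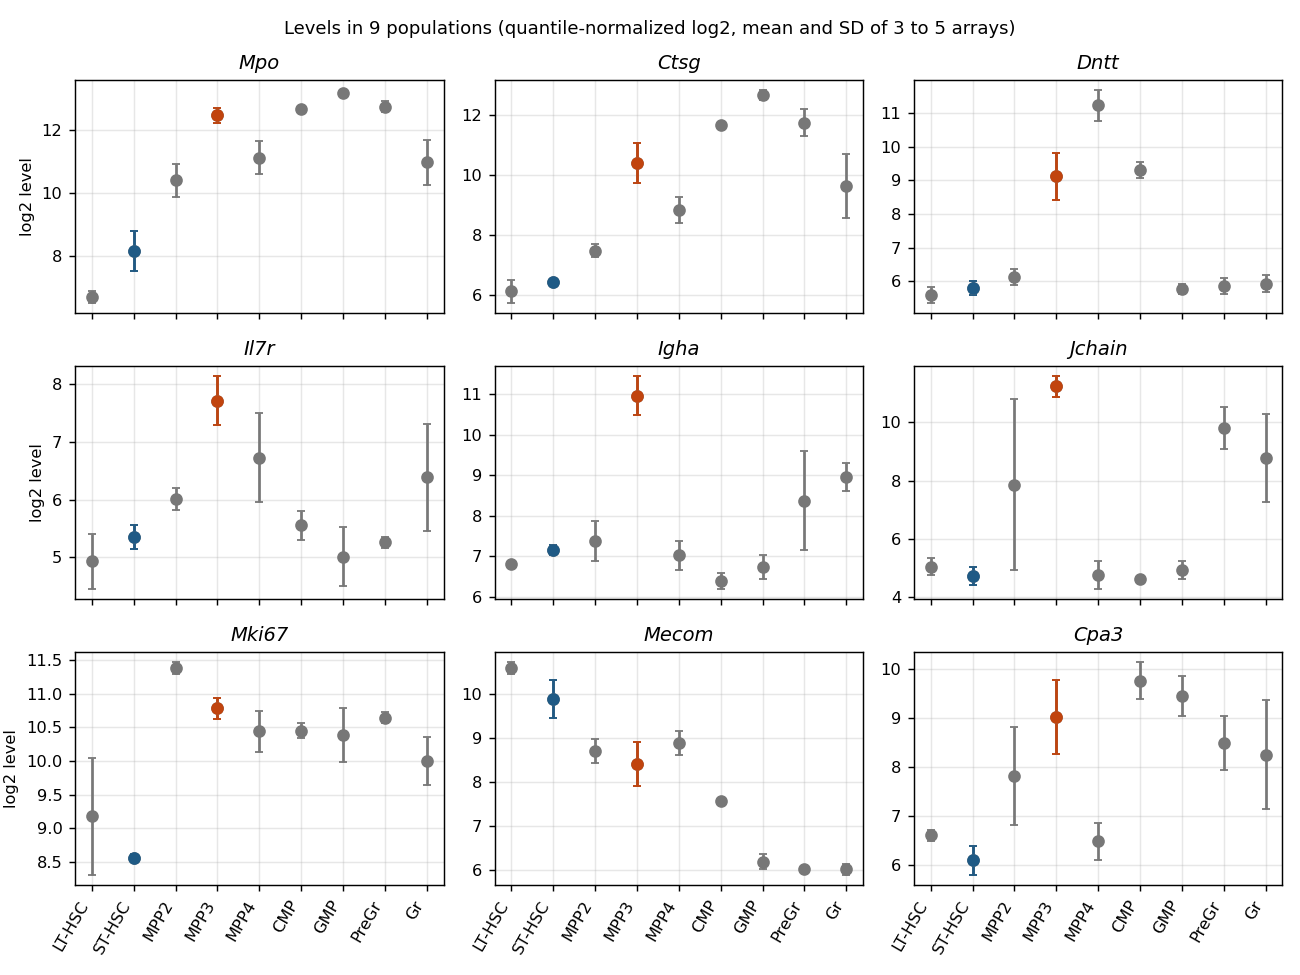
Quantile-normalized log2 level of 9 genes in the 9 populations, ordered by stage (LT-HSC and GMP with 4 arrays, MPP4 with 5 and the others with 3), as mean ± SD, with MPP3 in orange-red and ST-HSC in blue. Igha and Jchain are highest in MPP3, and Dntt is higher in MPP4 than in MPP3.

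Across the 9 populations the same genes took different courses, given here as levels with no test. Mpo averaged 12.48 ± 0.23 in MPP3 (SD, n = 3), between 11.13 ± 0.53 in MPP4 and 12.69 ± 0.07 in CMP, against 8.15 ± 0.63 in ST-HSC. Elane averaged 8.86 ± 0.70 in MPP3, close to 9.07 ± 0.15 in CMP and below 11.76 ± 0.34 in GMP. Dntt averaged 9.12 ± 0.69 in MPP3, near the 9.31 ± 0.24 of CMP and below the 11.23 ± 0.45 of MPP4. In GMP Dntt was at 5.77 ± 0.14, about the ST-HSC level of 5.81 ± 0.21, while Mpo was at 13.19 ± 0.09 in GMP. Both genes were thus above their ST-HSC levels in MPP3, MPP4 and CMP, and in GMP Mpo alone was. Igha averaged 10.96 ± 0.48 in MPP3, 8.37 ± 1.22 in pre-granulocytes and 8.96 ± 0.34 in granulocytes, and lay at 7.38 or below in the other 6 populations. Jchain averaged 11.23 ± 0.35 in MPP3 and 9.80 ± 0.73 in pre-granulocytes, against 4.64 to 5.05 in LT-HSC, ST-HSC, MPP4, CMP and GMP. Mecom averaged 8.40 ± 0.50 in MPP3, below the means of 8.70 ± 0.27 in MPP2 and 8.89 ± 0.27 in MPP4 by less than the SD of the MPP3 arrays, and 9.89 ± 0.43 in ST-HSC. Levels of populations from other sets of arrays are compared across those sets.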

How the data were processed

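RNA of 31 sorted samples was amplified with NuGen kits and hybridised to mouse gene arrays, per the labels' protocols. The authors summarised the arrays with RMA, per the submitters' processing notes (version not given in the sources used here), and deposited 1 log2 value per probe and array. Of 35557 probes, 21789 name a single gene, 1621 name more than 1, and 12147 name no gene. The brightest probe stood for each of 999 genes with more than 1, which left 19938 genes, and 44 of 567 listed genes were not analysed here. Values were quantile-normalized over all arrays, because MPP3 3 was deposited at a lower level.

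limma 3.58.1 in R 4.3.3 fitted 1 mean per population (22 residual degrees of freedom), and a scale-matched fit added the set of arrays (18 residual degrees of freedom). Sets were found from arrays that share 2 or more identical values at the same probe, and the labels do not name them. Tests were two-sided, with p-values adjusted over all genes, and they measure the spread between samples labelled biological replicates. The number of arrays limits the precision. Named genes were the 10 that rose most and the 10 that fell most among genes whose groups do not overlap. Predicted genes, unnamed transcripts and Riken clones were passed over there, and at most 3 immunoglobulin segments were taken. Also named were up to 5 members called per direction of each of 27 lists, and the sort markers. Uncalled members could be named with their values. The members, lists and tests were chosen with earlier results of these data known. Fits were tested on simulated data. Plots used matplotlib 3.10.9 (Python 3.11.15). Alternatives changed the normalization, arrays, filter, probes and variance model.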

Additional observations from a re-analysis of the deposited data

How the results depend on the processing

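The fit to all arrays called 629 genes in MPP3 against ST-HSC (395 higher and 234 lower). The total was 260 (60 higher) on deposited values without normalization, 300 (210 higher and 90 lower) after centring on array medians, 344 (240 and 104) after quantile normalization of the 6 arrays alone, 341 (236 and 105) in a fit of the 6 arrays only, 249 (206 and 43) on deposited values of arrays at the ST-HSC level and 1152 (665 and 487) with array weights. Leaving out each array in turn gave 374 to 621 calls, 241 to 373 higher and 106 to 248 lower. The scale-matched fit called 622, with 263 from arrays at the ST-HSC level only and 401 from 5 arrays only, both chosen after seeing the data, and 282 to 669 with 1 array left out. Against MPP2, 192 genes were called, with 41 on deposited values at the ST-HSC level and 97 to 387 with 1 array left out. Called in both fits were 468, with 228 to 453 when 1 array was left out. With the replicate number as a block, 654, 508 and 260 genes were called in these 3 fits and 385 in both fits against ST-HSC. Residuals of same-numbered arrays correlated at 0.144, -0.0368 and 0.0175, so the numbers were not taken as pairs, and of the 468 genes 362 were still called in both fits with the block. In the fit to all arrays, F13a1 (adjusted p = 0.0587) was the 1 named call that the block ended. In that fit, named calls ended for 35 genes without normalization, 35 at the ST-HSC level, 22 after median centring, 22 with the 6 arrays only and 19 with their own quantile normalization. These losses are not all listed at genes whose calls already ended without a single array. Over 18 alternatives and 80 named calls, 1196 of 1432 comparisons kept direction and call, 236 lost the call and 0 reversed. The scale-matched fit is among the 18 alternatives. All 80 named calls had to be called there in the same direction, so those comparisons were kept by selection. Without normalization, direction was judged after the median change of all genes (-0.27) was subtracted, while the adjusted p was left as fitted. The cause of these shifts was not tested. The arrays' number limits the precision.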

Other observations

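Families that the lists did not cover were looked at after their values were seen, so their counts are descriptions. Of 27 clustered histone genes, whose products package new DNA in S phase, 9 rose in MPP3 and none fell, beside 1.58% of all genes that rose. H2ac4 was at 9.98, 9.87 and 9.86 in MPP3, against 6.81, 7.87 and 5.93 in ST-HSC (3.04 ± 0.57, adjusted p = 0.00129). H2ac15 was at 11.26, 11.40 and 11.82 in MPP3, against 9.49, 9.93 and 9.39 in ST-HSC (1.89 ± 0.29). The groups did not overlap for either, which for H2ac4 was a condition for being named among the largest rises. The ST-HSC arrays spread widely for H2ac4. Histone genes are near copies of each other, so a probe may read several.

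Of 38 kinesin genes, which encode motors on microtubules, 9 rose and none fell, beside 1.58% of all genes that rose. The median change of the kinesins was 0.12. Kif15, a spindle motor, was at 9.63, 9.28 and 9.52 in MPP3, against 6.80, 6.96 and 6.82 in ST-HSC (2.62 ± 0.29, adjusted p = 1.16e-06). Of 21 centromere protein genes 9 rose, among them Cenpi, at 7.36, 7.23 and 7.14 in MPP3, against 6.31, 5.84 and 5.66 in ST-HSC (1.305 ± 0.191). Of 8 immunoglobulin kappa V segments 6 rose.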
